A study of Homo sapiens with 16 samples.

Results

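The CC chemokines described here are 10 genes, CCL1, CCL2, CCL3, CCL4, CCL5, CCL7, CCL8, CCL20, CCL22 and CCL23, taken by symbol from a count table of 23575 gene symbols. All 10 were found, and all 10 passed the filter on low counts in the differentiated cells. HL-60 is a human promyelocytic leukaemia line that can be turned into neutrophil-like cells in culture. RNA-seq was run on undifferentiated cells (uHL-60) and differentiated cells (dHL-60) of this line after exposure to lipoteichoic acid (LTA) of Staphylococcus aureus. Collection was at 4 or 24 h. For uHL-60 there were 4 groups of 1 library, without LTA and with 1 µg/ml at each time. For dHL-60 there were 6 groups of 2 libraries, without LTA, with 1 µg/ml and with 10 µg/ml at each time. The labels call every sample wild type, and no source used here names the agent that differentiated the cells. All 16 libraries come from 1 cell line, and nothing states that the 2 libraries of a dHL-60 group were separate cultures, so the p-values measure the spread between these libraries, which may be technical.

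CC chemokines are small secreted proteins named for a pair of adjacent cysteines near the start of the mature protein. They bind G protein-coupled receptors on leukocytes and draw those cells up a gradient, and several of them share receptors. CCL2, CCL7 and CCL8 are monocyte attractants that act through CCR2, CCL3, CCL4 and CCL5 attract monocytes and T cells, CCL1 binds CCR8, CCL20 binds CCR6, CCL22 binds CCR4 and CCL23 binds CCR1. LTA is a polymer of the Gram-positive cell envelope that phagocytes sense mainly through TLR2, and that pathway ends in NF-κB, a factor whose sites occur in many chemokine promoters. Neutrophils are known to make CCL3, CCL4 and CCL20 when stimulated.

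In RefSeq on GRCh38.p14, 8 of the 10 genes lay on chromosome 17 and 2 lay elsewhere. The first block on chromosome 17 spanned 107.9 kb and held CCL2 (chr17:34255285-34257203, plus strand), CCL7 (chr17:34270221-34272242, plus), CCL8 (chr17:34319435-34321402, plus) and CCL1 (chr17:34360328-34363233, minus). After a gap of 1508.3 kb, the second block spanned 234.1 kb and held CCL5 (chr17:35871491-35880360, minus), CCL23 (chr17:36013058-36017972, minus), CCL3 (chr17:36088256-36090143, minus) and CCL4 (chr17:36103827-36105614, plus). CCL20 lay at chr2:227813842-227817556 and CCL22 at chr16:57357909-57366189, both on the plus strand.

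Start-site windows of 250 bases upstream were matched in RefSeq for 7 of the 10 genes, all but CCL2, CCL4 and CCL5. They were searched on both strands for the NF-κB consensus, a motif of 10 letters that 9.96% of 35116 promoter windows of the same length held. The consensus was found in 3 of the 7 windows, CCL20, CCL1 and CCL22, and these are printed to show where it lies. CCL3, CCL7, CCL8 and CCL23 lacked it. All 7 genes with a window rose with LTA at 4 h, so a comparison of rise with no rise could not bear on the consensus. Whether the consensus goes with the size of the response was not tested. Each printed window is given 5′ to 3′ on the gene's strand, with the consensus matches in capitals, which overlap each other in CCL1 and CCL22.
CCL20, chr2:227813592-227813841, plus strand: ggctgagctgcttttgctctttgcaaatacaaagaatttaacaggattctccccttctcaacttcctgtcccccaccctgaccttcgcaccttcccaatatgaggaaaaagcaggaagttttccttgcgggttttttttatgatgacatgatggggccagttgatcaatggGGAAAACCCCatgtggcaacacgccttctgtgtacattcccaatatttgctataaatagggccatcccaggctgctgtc
CCL1, chr17:34363234-34363483, minus strand: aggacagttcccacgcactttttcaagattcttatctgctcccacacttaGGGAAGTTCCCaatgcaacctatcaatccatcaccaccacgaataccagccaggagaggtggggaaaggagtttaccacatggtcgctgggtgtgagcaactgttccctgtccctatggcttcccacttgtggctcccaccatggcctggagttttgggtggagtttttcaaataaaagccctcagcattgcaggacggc
CCL22, chr16:57358533-57358782, plus strand: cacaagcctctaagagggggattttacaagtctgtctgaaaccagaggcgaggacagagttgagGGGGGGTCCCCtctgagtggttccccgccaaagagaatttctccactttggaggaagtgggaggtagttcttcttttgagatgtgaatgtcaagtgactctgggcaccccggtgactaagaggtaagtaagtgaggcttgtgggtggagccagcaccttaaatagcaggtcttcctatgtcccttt
The match in CCL20 began 79 bases before the start, on the opposite strand. It also fitted a second NF-κB motif (GGG, any 2 bases, TTTCC), which partly overlaps the consensus in the letters it allows and was found in 1.73% of windows. The 2 matches in CCL1 began 200 and 199 bases before the start, and the 2 in CCL22 began 186 and 185 bases before a start that lies inside the annotated gene span. TATAAA on the gene's strand, present in 6.8% of windows, was found 29 bases before the start in CCL3 and CCL20, 30 bases before it in CCL7 and CCL8, and 15 bases before it in CCL23. The AP-1 motif TGANTCA, held by 6.57% of windows, was found in CCL7 at 51 bases, and the C/EBP motif TTGCNNAA, held by 9.05%, in CCL3 at 116 bases. The interferon-response motif (GAAA, any 2 bases, GAAA), held by 3.02% of windows, was searched too and was in none of the 7. A match is a description of these letters and not a binding site, and its absence says only that the letters are not in the window.

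The 16 libraries held 9653374 to 20157081 counts. In the deposited table the uHL-60 values were listed in another order of the symbols than the dHL-60 values, and they were put back in order before use. The 10 genes kept their position. Levels are given as CPM, counts scaled to library size and composition, and a gene is called changed where the edgeR quasi-likelihood test gave a Benjamini-Hochberg adjusted p under 0.05 over all genes tested. Of 16 mature neutrophil markers, 15 were higher in untreated dHL-60 than in uHL-60, although FCGR3B reached no more than 1.46 CPM and CXCR1 no more than 3.17 CPM in any library. The summed promyelocyte markers were 24517 to 27254 CPM in uHL-60, 10142 to 13151 CPM in untreated dHL-60 at 4 h and 18043 to 23513 CPM in untreated dHL-60 at 24 h.

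In dHL-60 the 10 genes together took 0.114% ± 0.0489 (SD, n = 2) of all counts at 4 h without LTA. Their share was 1.12% ± 0.171 with 1 µg/ml and 1.285% ± 0.0603 with 10 µg/ml (SD, n = 2 each). At 24 h it was 0.0182% ± 0.00264 without LTA, 0.141% ± 0.0136 with 1 µg/ml and 0.333% ± 0.0496 with 10 µg/ml (SD, n = 2 each). The treated libraries thus stood above the untreated ones at both times, and every group was lower at 24 h than at 4 h. In the 4 uHL-60 libraries the share was between 0.00135% and 0.00217%.

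The make-up of this output differed between the times. CCL2, CCL3 and CCL4 supplied 34.1%, 23.5% and 33.5% of the family's counts in the first library at 10 µg/ml and 4 h, and 33.7%, 24.3% and 31.1% in the second. At 24 h CCL2 alone supplied 76.1% and 77.3% at that dose, and 82.1% and 86.1% in the untreated libraries. CCL5, at 62.3% to 80% of the family's counts, led in all 4 uHL-60 libraries. Per kilobase of transcript, which allows genes to be compared, the order at 10 µg/ml and 4 h was CCL2 at 7014 ± 554, CCL4 at 5489 ± 674 and CCL3 at 4706 ± 233 CPM per kb (SD, n = 2). CCL20 at 729 ± 132, CCL5 at 413 ± 64.6 and CCL1 at 289 ± 40.1 CPM per kb followed. CCL7 at 57.2 ± 0.456, CCL22 at 44.5 ± 21, CCL8 at 15 ± 2.25 and CCL23 at 7.78 ± 2.86 CPM per kb were lowest (SD, n = 2). In this order the means of CCL7 and CCL22 lay closer together than the spread of CCL22, and those of the other neighbours lay farther apart than the larger of their spreads. Reads of the near-identical copies CCL3L3 and CCL4L2 (1982 and 1929 CPM for CCL4L2 in these libraries) are not in these values, so the order of CCL2, CCL4 and CCL3 is uncertain.

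**Figure D1:**
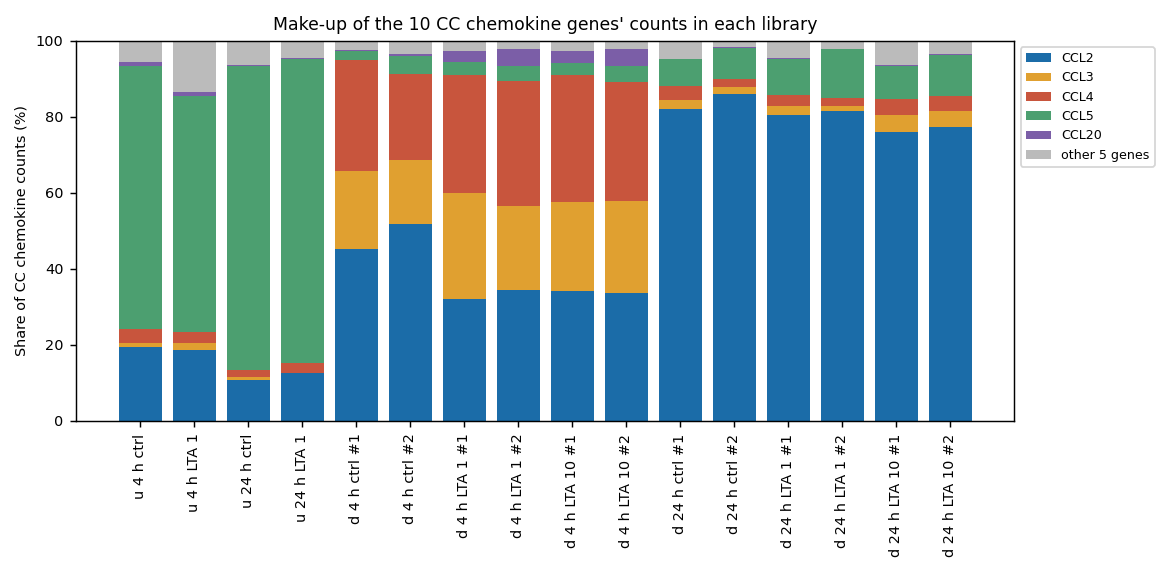
Bars show, for each of the 16 libraries, what percent of the counts of the 10 CC chemokine genes each gene supplied (y axis, 0 to 100%), with 5 genes shown singly and the other 5 summed. CCL5 (62.3% to 80%) fills most of the uHL-60 bars, CCL2, CCL3 and CCL4 share the 4 h dHL-60 bars, and CCL2 (76.1% to 86.1%) fills most of the 24 h dHL-60 bars.

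Among the monocyte attractants, CCL2 (also known as MCP-1) measured 675 and 374 CPM in the 2 untreated dHL-60 libraries at 4 h, 4752 and 3838 CPM with 1 µg/ml LTA and 5488 and 4907 CPM with 10 µg/ml. At 24 h the CCL2 values were 146 and 127, 1077 and 963, and 2807 and 2232 CPM in the same order, and the 4 uHL-60 libraries held 1.39 to 4.03 CPM. No 2 dHL-60 groups overlapped for CCL2, and every dHL-60 library was above every uHL-60 library. CCL7, which acts on monocytes and on eosinophils, measured 0.927 and 1.54, then 34.9 and 36.7, then 46.1 and 46.6 CPM at 4 h without LTA and at the low and high dose. At 24 h its values were 0.16 and 0.0747, 3.22 and 4.08, and 16.1 and 21.8 CPM, and 1 count, in the treated library at 4 h, was found in the 4 uHL-60 libraries. The dHL-60 groups of CCL7 did not overlap either, and they stood in the same order as those of CCL2. CCL8, the third of these attractants, measured 3.19 and 2.14, 12.3 and 21.4, and 16.9 and 20.9 CPM at 4 h. At 24 h CCL8 had 0 counts in both untreated libraries, 0.877 and 0.329 CPM at the low dose and 1.77 and 1.39 CPM at the high dose. The 2 doses overlapped at 4 h, and all 4 treated libraries at 24 h lay below the untreated ones at 4 h. CCL8 had 0 counts in all 4 uHL-60 libraries, which allows up to 0.148 to 0.187 CPM per library by counting error alone.

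Of CCL3, CCL4 and CCL5, the first, CCL3, measured 309 and 121 CPM in untreated dHL-60 at 4 h, 4117 and 2493 CPM at the low dose and 3789 and 3533 CPM at the high dose. At 24 h its values were 4.23 and 2.54, 31.1 and 17.5, and 164 and 117 CPM, and uHL-60 held 0 to 0.403 CPM. The 2 doses overlapped at 4 h, and the high dose at 24 h overlapped untreated cells at 4 h. CCL4, also an attractant of monocytes and T cells, measured 434 and 163, 4630 and 3675, and 5393 and 4531 CPM at 4 h. At 24 h it measured 6.15 and 2.99, 39.7 and 23, and 156 and 118 CPM, against 0.257 to 0.594 CPM in uHL-60. For CCL4 only the 2 doses at 4 h overlapped. CCL5 (RANTES), a T-cell and monocyte attractant, measured 35.4 and 34.8, 495 and 421, and 502 and 626 CPM at 4 h. At 24 h it measured 12.7 and 12.1, 129 and 153, and 316 and 312 CPM. Its treated groups did not overlap with each other, and its untreated 24 h libraries fell inside the uHL-60 range of 10.4 to 13.4 CPM.

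Of the attractants of lymphocytes and dendritic cells, CCL20, which recruits CCR6-bearing cells, measured 6.49 and 3.6 CPM in untreated dHL-60 at 4 h. With LTA at 4 h it measured 442 and 506 CPM at the low dose and 509 and 658 CPM at the high dose. At 24 h its values were 0.107 and 0.299, 0.731 and 0.395, and 7.91 and 4.02 CPM, and uHL-60 held 0.0514 to 0.23 CPM. The high dose at 24 h overlapped untreated cells at 4 h, and untreated cells at 24 h overlapped uHL-60. CCL22, a ligand of CCR4, measured 23.3 and 14.5, 144 and 70.4, and 174 and 86.8 CPM at 4 h. At 24 h CCL22 measured 5.51 and 1.79, 40.6 and 11.4, and 113 and 26.1 CPM, against 0.198 to 0.345 CPM in uHL-60. The first library was above the second in all 6 dHL-60 groups, and the 2 doses overlapped at both times. CCL1, the ligand of CCR8, measured 6.38 and 6.17, 194 and 117, and 188 and 154 CPM at 4 h. At 24 h CCL1 measured 1.6 and 0.0747, 16.4 and 8.95, and 104 and 49.4 CPM, against 0.124 to 1.9 CPM in uHL-60. Its untreated 24 h libraries lay within or below the uHL-60 range, and the 2 doses overlapped at 4 h. CCL23, a CCR1 ligand, measured 1.65 and 1.2, 4.47 and 2.36, and 6.12 and 3.59 CPM at 4 h. At 24 h CCL23 measured 1.284 and 0.672, 1.17 and 1.97, and 3.45 and 3.26 CPM, against 0.311 to 0.575 CPM in uHL-60. Most neighbouring groups of CCL23 overlapped, and every dHL-60 library was above every uHL-60 library.

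**Figure D2:**
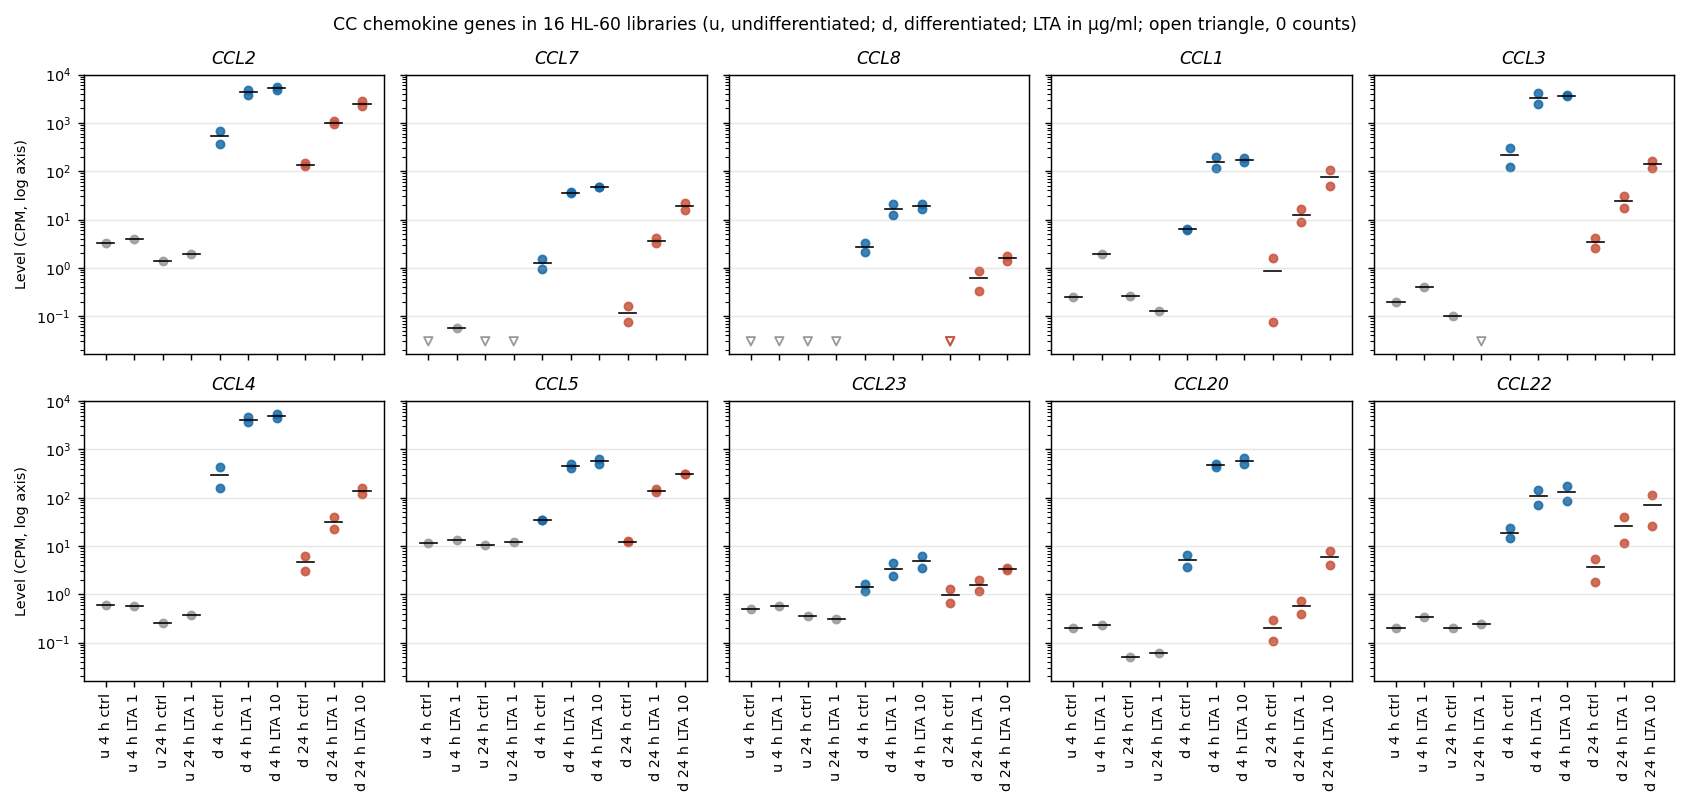
Each panel plots the level of 1 CC chemokine gene (CPM, log axis) in each of the 10 groups, with a point per library, a black line at the group mean and an open triangle, placed at the foot of the axis, for 0 counts. In each panel the highest point is an LTA-treated dHL-60 library at 4 h (blue), as for CCL20 at 442 to 658 CPM, and the uHL-60 (grey) are at or near the bottom, where CCL5 held 10.4 to 13.4 CPM.

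Untreated cells were compared first, to see how the 2 cell states differed in these genes without LTA. All 10 were called higher in untreated dHL-60 than in untreated uHL-60, where 29.7% of the 11884 genes tested were called higher and 28.3% lower. The fit used 4 dHL-60 and 2 uHL-60 libraries with time as a term. CCL3 was 9.24 ± 0.95 higher on the log2 scale (± SE throughout, adjusted p = 8.35e-05), CCL4 8.04 ± 1.06 (0.000318) and CCL2 6.97 ± 0.39 (2.83e-06). CCL22 was 5.53 ± 0.75 higher (adjusted p = 0.000367), CCL20 4.08 ± 0.81 (0.00257) and CCL1 3.38 ± 1.01 (0.0182). The smallest differences were those of CCL23, 1.44 ± 0.51 (adjusted p = 0.0369), and CCL5, 0.85 ± 0.29 (0.0338). CCL7 and CCL8 had 0 counts in the untreated uHL-60, so their differences are lower bounds from 3 counts over the group, at least 7.66-fold and at least 13.8-fold. The median over the 10 genes was 5.96 as fitted and 3.94 with those 2 at their bounds, against 0.01 over all genes tested. The fit joins 2 times that differed. As ratios of summed CPM with 95% counting intervals, CCL3 was 1044-fold higher (408 to 3835) at 4 h and 34.3-fold (9.27 to 286) at 24 h. CCL4 was 482-fold (276 to 933) and 18.8-fold higher (7.88 to 58.7), CCL1 25.3-fold (10.6 to 79.3) and 3.76-fold (1.45 to 12.4), and CCL5 2.97-fold (2.56 to 3.44) and 1.201-fold (1.01 to 1.43). At 24 h the untreated dHL-60 libraries of CCL1, CCL5 and CCL20 lay within, below or across the range of the 4 uHL-60 libraries. CCL8 had 0 counts in both untreated cell states at 24 h, and CCL7 had 4 in dHL-60 and 0 in uHL-60. The bounds of these 2 genes thus rest on untreated dHL-60 at 4 h, with 56 counts of CCL8 and 27 of CCL7, and show no difference at 24 h. Without the first untreated 4 h dHL-60 library CCL3 and CCL4 stood at 8.41 and 7.15. Without either untreated 4 h dHL-60 library only 7 of the 10 passed the filter, and 5 (without the first; CCL5 and CCL23 lost, adjusted p = 0.0755 and 0.0863) or 4 (without the second; CCL1, CCL5 and CCL23 lost, 0.0534, 0.0889 and 0.0522) were called. Without the first untreated 24 h dHL-60 library CCL1 (0.0683) and CCL23 (0.102) were not called, and DESeq2 did not call CCL8 (adjusted p = 0.571) or CCL23 (0.0818), nor edgeR CCL23 without the filter (0.0559).

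At 4 h, LTA raised all 10 CC chemokines in dHL-60 at both doses. At 1 µg/ml, 18.7% of the 11866 genes tested were called higher and 20.1% lower, and at 10 µg/ml 20% were called higher and 21.3% lower. Higher genes were 48.2% and 48.5% of those called, and 37% and 36.4% with upper-quartile scaling, where the all-gene median shifted by -0.12 and -0.13. This scaling left the sign of each of the 10 the same. The treated and untreated libraries did not overlap for any of the 10 genes at either dose. The share of all genes tested without overlap was not counted, so this is a description only. CCL20 had the largest change, 6.57 ± 0.32 (adjusted p = 2.51e-08) at the low dose and 6.88 ± 0.32 (1.56e-08) at the high dose, which is 95.1-fold and 118-fold. CCL7 rose by 4.82 ± 0.26 and 5.20 ± 0.26, and CCL1 by 4.63 ± 0.48 and 4.77 ± 0.49. CCL3, CCL4 and CCL5 rose by similar amounts, CCL3 by 3.94 ± 0.42 and 4.09 ± 0.42, CCL4 by 3.79 ± 0.42 and 4.06 ± 0.42, and CCL5 by 3.70 ± 0.16 and 4.01 ± 0.16. CCL2, already abundant before treatment, rose by 3.03 ± 0.25 and 3.31 ± 0.25, and CCL8 by 2.69 ± 0.35 and 2.84 ± 0.34. CCL22 rose by 2.51 ± 0.69 (adjusted p = 0.011) and 2.80 ± 0.70 (0.00563). CCL23 changed least, by 1.22 ± 0.46 (adjusted p = 0.0488) and 1.78 ± 0.44 (0.00538). The median of the 10 was 3.75 at the low dose and 4.04 at the high dose, against -0.04 over all genes tested at both. Without the first untreated library CCL3 stood at 4.78 and 4.93 and CCL4 at 4.68 and 4.95 at the low and high dose. The call of CCL22 at the low dose was lost without the second untreated library (2.19, adjusted p = 0.0694) or the first treated one (1.91, 0.0712), and at the high dose without the first treated library (2.21, 0.0531). That of CCL23 at the low dose was lost without either untreated library (1.46 and 0.99, adjusted p = 0.0755 and 0.197), without the first treated library (0.74, 0.303) and with DESeq2 (0.0514), upper-quartile scaling (0.0666) or all 16 libraries in the fit (0.0528), and at the high dose without the first treated library (1.35, 0.0736).

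**Figure D3:**
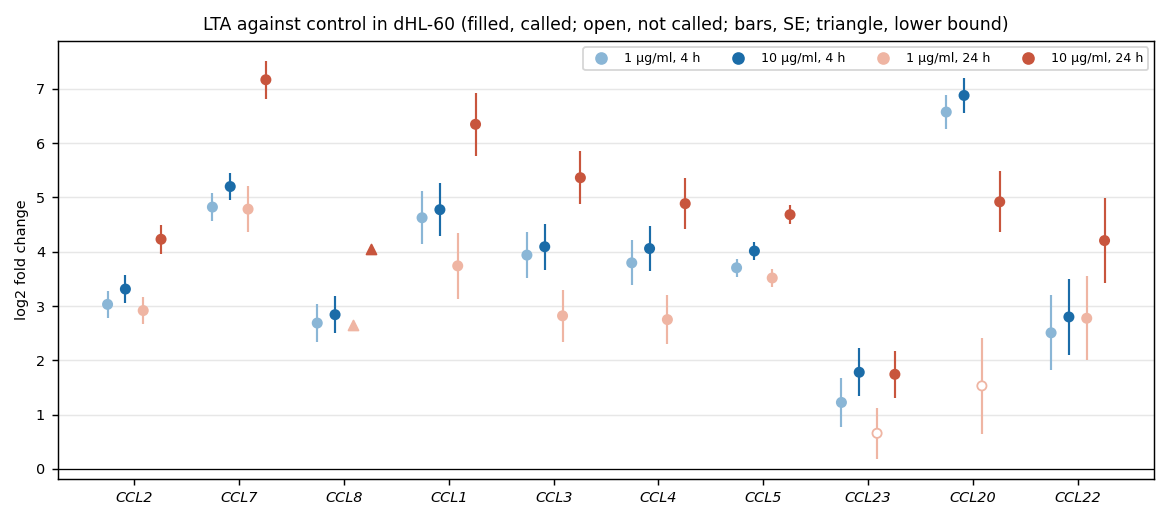
Points show the log2 fold change of LTA-treated over untreated dHL-60 (y axis) for each gene at 2 doses and 2 times, with bars for the SE. Filled points passed an adjusted p of 0.05, and triangles are lower bounds for CCL8, whose untreated 24 h libraries had 0 counts. CCL20 is highest at 4 h (6.57 and 6.88) and at 24 h CCL7 lies at 4.78 and 7.17, and the open points are CCL20 and CCL23 at 1 µg/ml and 24 h.

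At 24 h the low dose raised 8 of the 10 genes, where 13.9% of the 11866 genes tested were called higher and 7.26% lower, and the high dose raised all 10, where 23.6% were called higher and 19% lower. At the low dose higher genes were 65.7% of those called, and 55% under upper-quartile scaling. CCL7 rose by 4.78 ± 0.43 and 7.17 ± 0.35 (adjusted p = 4.79e-06 and 1.02e-08). The untreated 24 h libraries together held 4 counts of CCL7 and 6 of CCL20. CCL5 rose by 3.52 ± 0.16 and 4.68 ± 0.17, and CCL2 by 2.92 ± 0.25 and 4.23 ± 0.27. CCL1 rose by 3.74 ± 0.61 and 6.35 ± 0.58, CCL3 by 2.82 ± 0.48 and 5.36 ± 0.49, and CCL4 by 2.75 ± 0.46 and 4.89 ± 0.47. The copies are not in these values. As ratios of summed CPM to control, CCL3L3 stood at 0.912 and 3.86 and CCL4L2 at 1.81 and 8.55 at the low and high dose. The change of each gene summed with its copy is not given here. CCL22 rose by 2.77 ± 0.78 (adjusted p = 0.0213) and 4.20 ± 0.78. CCL8, at 0 counts without LTA, was at least 6.3-fold higher at the low dose and at least 16.7-fold higher at the high dose. The 2 genes not called at the low dose were CCL20, at 1.53 ± 0.88 (adjusted p = 0.247), and CCL23, at 0.66 ± 0.47 (0.365), and at the high dose they rose by 4.92 ± 0.56 and 1.74 ± 0.44. CCL23 was also the gene whose treated and untreated libraries overlapped at the low dose, and none of the 10 overlapped at the high dose. Overlap was not counted over all genes at this time either. With CCL8 at its bound the median of the 10 was 2.80 and 4.78, against 0.01 and -0.01 over all genes tested. CCL1 had 30 and 1 counts in the untreated libraries, and without the first of them its change was 7.23 and 9.84, without the second 2.97 and 5.58, all 4 called. Without the first untreated library CCL7 stood at 5.45 and 7.83 and CCL4 at 3.41 and 5.55, and at the high dose CCL20 at 4.28, CCL22 at 5.30 and CCL23 at 2.33. At the high dose CCL20 stood at 5.66 without the second untreated library, and CCL20 at 4.31, CCL1 at 5.65 and CCL22 at 2.73 without the first treated one. CCL22 stood at 4.91 at the high dose and 3.43 at the low dose without the second treated library, and at 3.87 at the low dose without the first untreated one. At the low dose CCL22 was not called without the second untreated library (2.24, adjusted p = 0.145) or the first treated one (1.58, 0.295), nor CCL8 without the first untreated (0.07) or the first treated library (0.0776), and at the high dose CCL23 was not called without the second untreated library (1.39, 0.0526).

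The 2 doses were compared directly at each time. At 4 h 0 of the 10 genes passed the test, where 0.00843% of the 11866 genes tested did, 1 of the 10 had an unadjusted p under 0.05, and DESeq2 also called 0. The differences between 10 and 1 µg/ml ran from 0.15 ± 0.38 (CCL1) to 0.56 ± 0.40 (CCL23). The libraries of the 2 doses overlapped for 6 of the 10 genes, a number without an all-gene count beside it. At 24 h 7 of the 10 were higher at 10 µg/ml, where 3.03% of all genes tested were called higher and 0.792% lower. CCL20 differed most, by 3.39 ± 0.47 (adjusted p = 0.00192), followed by CCL1 at 2.61 ± 0.43 (0.0049), CCL3 at 2.54 ± 0.41 (0.0045) and CCL7 at 2.38 ± 0.21 (0.00016). CCL4 was 2.14 ± 0.40 higher (adjusted p = 0.0109), CCL2 1.31 ± 0.24 (0.00868) and CCL5 1.17 ± 0.15 (0.000934). CCL8 at 1.40 ± 0.52, CCL22 at 1.43 ± 0.66 and CCL23 at 1.09 ± 0.42 did not pass (adjusted p = 0.146, 0.219 and 0.151), and of these only CCL22 had overlapping libraries. The number called was 2 without the second low-dose library, where CCL1, CCL2, CCL3, CCL4 and CCL20 were lost (adjusted p = 0.106, 0.122, 0.0939, 0.158 and 0.0543), and 4 without the first high-dose library, where CCL1, CCL2 and CCL4 were lost (0.0511, 0.087 and 0.0784). The difference between 24 and 4 h in this dose effect was called for CCL7, 2.004 ± 0.28 (adjusted p = 0.00924), and CCL20, 3.08 ± 0.54 (0.035), where 0.177% of all genes tested were called higher at 24 h. That comparison was added after the values had been seen, and CCL7 was not called without the first high-dose 4 h library or either low-dose 24 h library (adjusted p = 0.0674 to 0.0816), nor CCL20 without either low-dose 4 h library, the first high-dose library at either time or either low-dose 24 h library (0.0608 to 0.344).

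**Figure D4:**
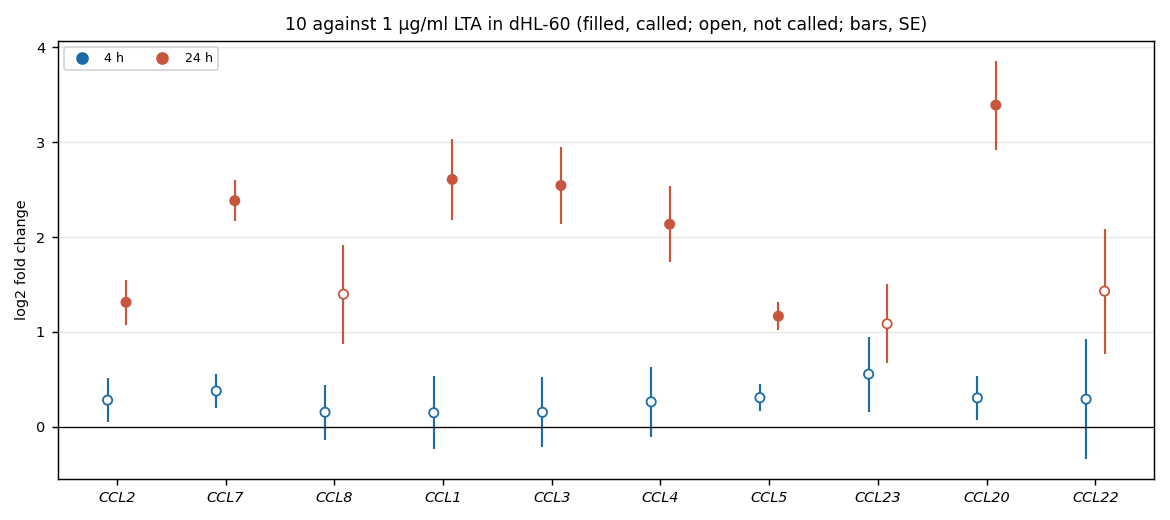
Points show the log2 fold change of dHL-60 at 10 over 1 µg/ml LTA (y axis) for each CC chemokine gene at 4 h (blue) and 24 h (red), with bars for the SE and filled points for an adjusted p under 0.05. The 4 h points lie between 0.15 and 0.56 and are all open, and the 24 h points lie between 1.09 and 3.39 with 7 of 10 filled.

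The levels fell between 4 and 24 h in the same treatment. In untreated dHL-60 9 of the 10 genes were lower at 24 h, where 23.1% of the 11866 genes tested were called lower and 17.8% higher. The change was -5.98 ± 0.49 for CCL4 (adjusted p = 1.62e-06), -5.95 ± 0.50 for CCL3 (1.87e-06) and -4.65 ± 0.59 for CCL20 (4.51e-05). CCL8 was at least 28-fold lower, since its 24 h libraries had 0 counts. It was -3.23 ± 0.55 for CCL7, -2.71 ± 0.67 for CCL1, -2.29 ± 0.80 for CCL22 (0.0341), -1.94 ± 0.24 for CCL2 and -1.49 ± 0.16 for CCL5. CCL23 was the 1 gene that did not pass, at -0.47 ± 0.50 (adjusted p = 0.474). Without the first 24 h library CCL1 stood at -6.20, CCL7 at -3.89, CCL4 at -6.64 and CCL20 at -4.01, and without the second CCL1 at -1.94 and CCL20 at -5.39. Without the first 4 h library CCL3 stood at -5.10 and CCL4 at -5.09. CCL22 lost its call without any 1 of 3 libraries, the first at 4 h or either one at 24 h (-1.90, -3.38 and -1.75, adjusted p = 0.142, 0.0525 and 0.173).

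With LTA the fall was steepest for CCL20. At 1 µg/ml 9 of the 10 genes were lower at 24 h, where 23.3% of all genes tested were called lower and 25.5% higher, and at 10 µg/ml 8 were, where 22.7% were called lower and 24% higher. The change of CCL20 was -9.69 ± 0.40 (adjusted p = 1.48e-09) at the low dose and -6.61 ± 0.31 (1.02e-08) at the high dose. At the low and high dose it was -7.07 ± 0.49 and -4.68 ± 0.43 for CCL3, -7.03 ± 0.49 and -5.16 ± 0.45 for CCL4, and -4.81 ± 0.41 and -3.56 ± 0.36 for CCL8. The falls were smaller for CCL5, at -1.68 ± 0.15 and -0.82 ± 0.14, and for CCL2, at -2.05 ± 0.24 and -1.02 ± 0.23. CCL7 changed by -3.27 ± 0.21 and -1.26 ± 0.18, and CCL1 by -3.60 ± 0.44 and -1.14 ± 0.39. CCL22 fell by 2.02 ± 0.67 at the low dose and stood at -0.88 ± 0.63 (adjusted p = 0.273) at the high dose, and CCL23 was not called at either, at -1.04 ± 0.43 (0.0605) and -0.51 ± 0.38 (0.297). CCL22 at the high dose was called without the filter (adjusted p = 1.43e-06) and with the replicate number as a block (0.0032). CCL23 at the low dose was called in both settings (0.0193 and 0.0484) and with DESeq2's size factors in edgeR (0.0483). Without the first high-dose 24 h library CCL22 stood at -2.33, and without the second low-dose 4 h library CCL23 at -1.47. Without the first 24 h library CCL22 stood at -3.21 and CCL8 at -5.63 at the low dose and CCL1 at -1.80 at the high dose, all called. CCL22 at the low dose was not called without the first 4 h library (-1.44, adjusted p = 0.141) or the second 24 h library (-1.37, 0.172), nor with DESeq2 (0.0527), and CCL1 at the high dose was not called without the first 4 h (-1.02, 0.125) or the second 24 h library (-0.69, 0.198), nor with DESeq2 (0.258).

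Because untreated cells changed with time too, the LTA response at 24 h was tested against that at 4 h. At the low dose 1 of the 10 genes differed, CCL20, whose response was lower at 24 h, with a difference of -5.04 ± 1.32 (adjusted p = 0.0152), where 7.41% of the 11866 genes tested had a lower and 13.3% a higher response at 24 h. At the high dose 4 of the 10 had a larger response at 24 h, where 19.7% of all genes tested did and 14% had a smaller one. They were CCL7, 1.97 ± 0.60 (adjusted p = 0.0229), CCL2, 0.92 ± 0.33 (0.0463), CCL5, 0.67 ± 0.21 (0.0278), and CCL8, whose fitted value rests on untreated libraries with 0 counts (0.0404). CCL20 at the high dose was at -1.96 ± 1.07 (adjusted p = 0.175). It was called as a smaller response at 24 h with DESeq2 (-1.91, adjusted p = 0.0217) and in edgeR without the filter (-1.97, 0.035). Without the second untreated 24 h library the counts were 0 at the low dose, with CCL20 at -4.30 (adjusted p = 0.193), and 0 at the high dose, with CCL2 at 0.81, CCL5 at 0.62 and CCL7 at 1.61 (0.135, 0.0817 and 0.0995). With DESeq2's size factors in edgeR CCL2 at the high dose was not called (0.89, adjusted p = 0.0501). Of the 8 libraries in the high-dose comparison, CCL2 (at 0.42 to 1.03) was not called without any of 6, all but the second untreated 4 h and the second high-dose 24 h library. CCL5 (at 0.50 to 0.72) was also not called without any of 6, all but the second library of untreated cells and of the high dose at 4 h. CCL8 lost its call without the first library of any of the 4 groups or the second untreated 24 h library, and CCL7 also without the second untreated 4 h (1.54, adjusted p = 0.113) or the first untreated 24 h library (2.63, 0.0613). Calls were gained too. At the high dose CCL1 was called without the first untreated 24 h (5.07) or the second high-dose 24 h library (2.01). CCL3 (1.80) and CCL4 (1.37) were called at that dose without the second untreated 4 h library. At the low dose CCL3 (-1.96) and CCL4 (-1.94) were called beside CCL20 without the first untreated 4 h library.

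In undifferentiated cells no response to 1 µg/ml LTA passed the test for the 3 of these genes that could be tested. With both times together and time as a term, 3 of the 10 genes passed the filter on low counts, CCL2 at 0.35 ± 0.25, CCL4 at 0.16 ± 0.64 and CCL5 at 0.21 ± 0.13, and 0 were called, where 0.209% of the 11020 genes tested were. Of the 3, 0 had an unadjusted p under 0.05, and DESeq2 also called 0 of them. This fit of 4 libraries left 1 degree of freedom for the spread and gave both times the same LTA effect. The absence of a call therefore does not show that uHL-60 did not respond, and CCL1 was not among the 3. In single libraries, CCL5 was at 11.8 CPM without and 13.4 CPM with LTA at 4 h, a ratio of 1.13 (95% counting interval 0.942 to 1.36), and at 10.4 and 12.2 CPM at 24 h, a ratio of 1.17 (0.96 to 1.44). CCL2 had ratios of 1.21 (0.856 to 1.72) and 1.39 (0.803 to 2.42). CCL1 had 5 counts without and 33 counts with LTA at 4 h, a ratio of 7.67 (2.98 to 25.2), and 5 and 2 counts at 24 h, a ratio of 0.484 (0.0461 to 2.96). These intervals are exact, compare 2 libraries and cover counting error only, so the CCL1 difference at 4 h has no replicate check.

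The low-dose response of dHL-60 was then tested against that of uHL-60, on the assumption that a lone uHL-60 library varies as dHL-60 libraries do. At 4 h 3 of the 10 genes responded more in dHL-60, where 5.43% of the 12603 genes tested did and 4.91% responded less (52.5% of the called genes responded more, and 41.9% under upper-quartile scaling). They were CCL20, by 6.37 ± 1.76 (adjusted p = 0.0333), CCL5, by 3.52 ± 0.28 (2.31e-05), and CCL2, by 2.75 ± 0.51 (0.00362). At 24 h 1 of the 10 did, CCL5, by 3.27 ± 0.28 (adjusted p = 8.8e-05), where 1.35% of all genes tested responded more and 0.278% less, and CCL2 was at 2.43 ± 0.64 (0.0746). CCL1, at 5 and 33 counts in uHL-60 at 4 h, differed by 1.73 ± 1.85 (adjusted p = 0.634). For CCL7, CCL8 and CCL22 the uHL-60 libraries held 0 to 6 counts each and the differences were not called. Those of CCL3, CCL4 and CCL23, at 0 to 12 counts in each uHL-60 library, were not called either. CCL4 at 4 h was called with DESeq2 (3.89, adjusted p = 0.00792), and in edgeR without the filter (3.85, 5.93e-07) or with copies summed (4.69, 0.0195). A difference that was not called does not show that both cell states responded alike. CCL20, whose difference at 4 h was called, held 4 counts in each uHL-60 library at that time.

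CCL3 and CCL4 have near-identical copies, CCL3L3 and CCL4L2, and the counting could split reads between them. The CCL3 and CCL3L3 transcripts were 96.1% identical with 9.9% of 50-base stretches shared, and those of CCL4 and CCL4L2 were 96.5% identical with 19.4% shared, against 67.8% identity and 0% shared between CCL3 and CCL4. At 4 h CCL3L3 rose by 3.11 ± 0.35 and 3.42 ± 0.35 at the 2 doses and CCL4L2 by 3.40 ± 0.36 and 3.66 ± 0.37. At 24 h and the low dose CCL3L3 was at -0.09 ± 0.40 (adjusted p = 0.897) and CCL4L2 at 0.90 ± 0.44 (0.166), where CCL3 and CCL4 had risen by 2.82 and 2.75. Untreated dHL-60 at 24 h held 9.47 and 7.17 CPM of CCL3L3 beside 4.23 and 2.54 CPM of CCL3, and at 4 h 175 and 64.4 CPM beside 309 and 121 CPM. With each gene summed with its copy, the response of CCL3 to the low dose was lower at 24 h than at 4 h, with a difference of -2.23 (adjusted p = 0.0103), where CCL3 alone stood at -1.12 ± 0.62 (0.229).

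Among the other CC ligands, 16 of the 18 listed were in the table and 4 passed the filter, the 2 copies, CCL13 and CCL24. All 4 were higher with LTA at 4 h at both doses, 1 at 24 h at the low dose and 4 at the high dose. CCL24, an eosinophil attractant that binds CCR3, rose by 2.86 ± 0.90 and 3.42 ± 0.90 at 4 h and by 5.05 ± 0.98 and 5.79 ± 0.99 at 24 h. It reached 140 and 45.8 CPM at the high dose and 24 h. CCL13, a further monocyte attractant, rose by 2.77 ± 0.48 and 2.81 ± 0.48 at 4 h and by 3.38 ± 0.77 at 24 h and the high dose. The first library of CCL24 was above the second in all 6 dHL-60 groups, by 2.51 to 12.7 times. The same held for CCL1 (1.03 to 21.5 times), CCL2 (1.12 to 1.80 times), CCL3 (1.07 to 2.55 times), CCL4 (1.19 to 2.66 times) and CCL22 (1.61 to 4.35 times), and not for the other 5 of the 10.

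The receptors that these ligands bind were measured as well. Of 14 CC receptor genes 7 passed the filter, and at 4 h 1 was higher and 3 were lower with LTA at each dose, where 18.7% and 20% of all genes tested were called higher and 20.1% and 21.3% lower. CCRL2, an atypical receptor that does not signal, rose by 3.97 ± 0.23 and 4.20 ± 0.23, from 6.8 and 6.43 CPM to 123 and 85.3 CPM at the low dose. The changes were -3.20 ± 0.27 and -3.09 ± 0.27 for CCR3, -2.57 ± 0.36 and -3.07 ± 0.38 for CCR2, the receptor for CCL2, and -1.58 ± 0.39 and -2.05 ± 0.41 for ACKR2, which takes up and degrades CC chemokines. At 24 h 4 receptors were higher and 0 lower at each dose. Among them CCRL2 rose by 2.85 ± 0.31 and 3.91 ± 0.30, CCR2 by 1.93 ± 0.35 and 1.71 ± 0.36, and CCR1 by 1.49 ± 0.16 and 1.67 ± 0.17. CCR2 measured 16.8 and 22.3 CPM in untreated cells at 4 h, 1.24 and 4.88 CPM at the low dose and 2.17 and 2.46 CPM at the high dose. At 24 h CCR2 measured 2.41 and 3.51, 10.5 and 11.5, and 9.01 and 9.77 CPM, so the treated libraries were below the untreated ones at 4 h and above them at 24 h. The response of CCR2 at 24 h minus that at 4 h was 4.50 ± 0.51 (adjusted p = 5.08e-05) at the low dose and 4.78 ± 0.52 (2.6e-05) at the high dose. CCR4, CCR6 and CCR8, the receptors for CCL22, CCL20 and CCL1, held 0 to 0.0535 CPM in dHL-60.

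Of 19 chemokines of other classes 8 passed the filter. In each of the 4 comparisons with control 7 were higher with LTA, but not the same 7 at both times. CXCL6 rose by 5.05 ± 0.32 and 5.35 ± 0.32 at 4 h, CXCL2 by 4.99 ± 0.27 and 5.19 ± 0.27 and CXCL3 by 4.92 ± 0.26 and 5.03 ± 0.26, all 3 being neutrophil attractants. CXCL10, an attractant of T cells, was called higher at 4 h on few counts, 0 and 1 without LTA, 5 and 18 at the low dose and 6 and 18 at the high dose, and was not called at 24 h. Of 32 genes of the TLR2 pathway 31 passed the filter, and 23 were higher and 2 lower with LTA at 4 h at each dose, against 15 and 20 higher and 0 lower at 24 h at the low and high dose. TNIP3 and TNFAIP3 restrain NF-κB signalling, IRAK2 is a kinase of the pathway and NFKBIZ is a nuclear regulator. TNIP3 was called higher in all 4 comparisons, with 2 and 0 counts without LTA and 25 to 109 counts with it at 4 h, and 0 counts without and 16 to 88 counts with it at 24 h. IRAK2 rose at 4 h by 4.03 ± 0.25 and 4.20 ± 0.25, NFKBIZ by 3.63 ± 0.31 and 3.79 ± 0.31, and TNFAIP3 by 3.20 ± 0.30 and 3.40 ± 0.30. At 24 h and the high dose NFKBIZ rose by 5.22 ± 0.41, IRAK2 by 4.62 ± 0.33 and NFKBIA, the inhibitor of NF-κB, by 3.32 ± 0.29.

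Marker genes of other cell types moved with LTA beside the CC chemokines. The 12 monocyte and macrophage markers summed to 577 to 743 CPM in untreated dHL-60 at 4 h and 1122 to 1334 CPM with LTA, and to 192 to 195 CPM at 24 h untreated, 800 to 844 CPM at the low dose and 1592 to 1688 CPM at the high dose. With 10 µg/ml at 24 h 4 of its 5 tested members were higher and 0 lower, and at 4 h 3 were higher and 1 lower. CD14 reached 1366 CPM, while CD163, MRC1, MARCO, MSR1, VCAN, C1QB and C1QC were at 0 or at most 1.39 CPM in every library. The 8 dendritic cell markers summed to 26.6 to 27.1 CPM at 4 h untreated, 91.6 to 95.6 CPM with LTA, and 33.6 to 43.1 CPM over the dHL-60 groups at 24 h. Of the 6 tested, 2 were higher, 1 was lower and 3 were not called with LTA at 4 h, at each dose. CLEC9A and XCR1 were at 0 at 24 h in all 6 dHL-60 libraries. The 16 neutrophil markers summed to 6005 to 7807 CPM at 4 h untreated and 8755 to 9645 CPM with LTA. Single members went both ways at 4 h, 6 higher and 5 lower at the low dose and 6 higher and 6 lower at the high dose. At 24 h the 16 summed to 1868 to 1959 CPM untreated, 7961 to 8018 CPM at the low dose and 14017 to 15122 CPM at the high dose. At that time 11 were higher at each dose, with 1 lower at the low and 0 at the high dose. The 12 promyelocyte markers summed to 8200 to 9946 CPM with LTA at 4 h, and at 24 h to 6962 to 10089 CPM at the low dose and 5496 to 6642 CPM at the high dose, below the untreated libraries of the same time. Of these 12, 5 and 7 were called lower at 4 h and 10 and 9 at 24 h at the low and high dose, and 0 higher. Eosinophil, basophil and mast cell markers summed to 26.7 to 35.7 CPM at 4 h untreated, 4.10 to 5.33 CPM with LTA at 4 h and 7.91 to 11.5 CPM at 24 h. Red cell and platelet markers summed to 36.0 to 39.8 CPM at 4 h untreated, 1.74 to 2.05 CPM at the low dose, 23.2 to 27.4 CPM at the high dose and 1.79 to 7.55 CPM at 24 h. T and NK cell markers summed to 611 to 795 CPM at 4 h and 885 to 1433 CPM at 24 h in dHL-60, and B cell markers to 0.877 to 3.42 CPM over all libraries. Of the 9 T and NK cell markers found, 3 passed the filter, and 1 to 5 were at 0 counts in each dHL-60 library. In bulk RNA fewer cells of a type and less RNA per cell cannot be told apart, and the part of these shifts in the chemokine results was not tested.

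Among the 12 dHL-60 libraries the members fell into patterns that were described by the correlation of log2 CPM, whose points share their libraries and treatments. CCL3 and CCL4 followed each other most closely (r = 0.9985), then CCL4 and CCL8 (r = 0.992), CCL3 and CCL8 (r = 0.990), CCL5 and CCL7 (r = 0.987) and CCL2 and CCL5 (r = 0.983). The pair least alike was CCL8 and CCL23 (r = 0.735). Of 9376 genes outside the chemokine lists with a mean of at least 5 CPM, the 1 most like each member was TBC1D10A for CCL3 (r = 0.997), FFAR2 for CCL4 (0.997), P2RX4 for CCL20 (0.995), ATF5 for CCL2 (0.994) and MSC for CCL8 (0.994). It was IL7R for CCL5 (r = 0.990), UBE2A for CCL7 (0.984), MCOLN2 for CCL1 (0.980), VAV1 for CCL22 (0.967) and LRRC42 for CCL23 (0.959).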

How the data were processed

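RNA was sequenced from 16 HL-60 samples (12 dHL-60, 4 uHL-60) with a stranded mRNA kit, per the labels' protocols. The authors deposited 1 table of raw counts per gene symbol. Per the submitters' processing notes, the tools were featureCounts 2.0.1, HISAT2 2.1.0 and fastp 0.20.0, with DESeq2 1.28.0, edgeR 3.36.0 and build GRCh38, without settings. No source used here says whether counting used strand or multiply mapped reads, so counts of CCL3, CCL4 and their copies are uncertain, as are those of overlapping genes.

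The uHL-60 columns follow plain character order of the symbols, which moves 1343 of 23575 symbols. Realigned, those symbols correlated with untreated dHL-60 at r = 0.906 against 0.253 as deposited. The counts were scaled by TMM, filtered with filterByExpr (minimum count 10) and tested with edgeR 4.0.16 (two-sided quasi-likelihood F test, R 4.3.3) with Benjamini-Hochberg adjustment over all genes. The 12 dHL-60 libraries were fitted together, the uHL-60 comparisons as described with their values. The text names all 10 members, at most 6 genes of each other list (those called with the largest change), and the gene most like each member. CCR4, CCR6, CCR8 and the marker genes with values were named after their values were seen. Levels per kilobase use GENCODE 29 transcript lengths. The scripts were tested on simulated data. The members and lists were chosen with earlier results of these data known. No dHL-60 pair agreed within sampling noise (chi-square per degree of freedom 10.3 to 18.9). Intervals cover counting error only. Alternatives were RLE and upper-quartile scaling, no filter, DESeq2 1.42.0, all 16 libraries, a replicate block, copies summed, the deposited order and leaving out each library.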

Additional observations from a re-analysis of the deposited data

Results flagged for a closer look

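Differences between times or cell states that passed a test of the difference itself were the following, all on the log2 scale with edgeR's adjusted p. The response of dHL-60 to 1 µg/ml LTA was smaller at 24 than at 4 h for CCL20 (-5.04, adjusted p = 0.0152). The response to 10 µg/ml was larger at 24 h for CCL2 (0.92, adjusted p = 0.0463), CCL5 (0.67, 0.0278), CCL7 (1.97, 0.0229) and CCL8 (4.48, 0.0404), the last fitted against untreated 24 h libraries with 0 counts. The response to 1 µg/ml at 4 h was larger in dHL-60 than in uHL-60 for CCL20 (6.37, adjusted p = 0.0333), CCL5 (3.52, 2.31e-05) and CCL2 (2.75, 0.00362), and at 24 h for CCL5 (3.27, 8.8e-05). No group had enough libraries for a test of single outlying samples.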

How the results depend on the processing

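The calls of LTA against control were the same in number, or within 1.5 times, for the 10 CC chemokines under RLE and upper-quartile scaling, no filter, DESeq2, all 16 libraries, the replicate block and summed copies. With 2 libraries a group, the single genes near the threshold (CCL8, CCL22, CCL23) and the differences between responses depended on single libraries. In uHL-60 7 of the 10 had too few counts to pass the filter, and without it 0 were called. The causes of the changes listed here were not tested.

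Without the filter on low counts, 22 genes were called for 10 against 1 µg/ml at 4 h and 1354 at 24 h. The CC chemokines called then were 8 (of 395 genes) for the dose effect at 24 against 4 h. For the response of dHL-60 against uHL-60 at 24 h they were 3 (of 652 genes). For the low- and high-dose response at 24 against 4 h they were 3 and 9, and the number of all genes called is not given here. With DESeq2, 2 and 753 genes were called for 10 against 1 µg/ml at 4 and 24 h, 4 CC chemokines of 160 genes for the dose effect at 24 against 4 h, 1 gene for LTA in uHL-60 and 2 CC chemokines of 397 genes for dHL-60 against uHL-60 at 24 h. With all 16 libraries in the fit 2 genes were called for 10 against 1 µg/ml at 4 h. The dose effect at 24 against 4 h was added after seeing the data. With copies summed, 2 CC chemokines were called for the low-dose response at 24 against 4 h, and CCL4 in uHL-60 stood at -0.58. All genes called were not counted under that setting. Values near 0 that changed sign without a call were CCL7 in the low-dose response at 24 against 4 h (0.0179 with upper-quartile scaling, 0.0153 with DESeq2) and CCL23 in the high-dose response (0.0263 with upper-quartile scaling).

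Over all genes, same-numbered dHL-60 libraries did not deviate together in every pair of groups (r = -0.204 to 0.383 over 15 pairs, 5 of them over 0.1), so the replicate number was not taken to pair libraries, although the first was above the second in all 6 groups for CCL1, CCL2, CCL3, CCL4 and CCL22. With the replicate number as a block, 10, 10, 8 and 10 CC chemokines (of 4738, 5011, 2680 and 5190 genes) were called for LTA against control at the low and high dose at 4 h and then at 24 h, 8 (of 663) for 10 against 1 µg/ml at 24 h, 3 and 7 (of 2635 and 4170) for the low- and high-dose response at 24 against 4 h, and 5 of 92 genes for the dose effect at 24 against 4 h. CCL23 in the high-dose response at 24 against 4 h then stood at 0.0389.

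Each dHL-60 library was left out in turn. For the low-dose response at 24 against 4 h the ranges were 0 to 3 CC chemokines called, CCL7 at -0.47 to 0.63, CCL22 at -0.93 to 1.36, CCL2 at -0.62 to 0.25, 1614 to 2270 genes called, CCL1 at -1.66 to 2.61 and CCL23 at -1.01 to 0.0196. For the high-dose response at 24 against 4 h the ranges were 0 to 5 CC chemokines called, CCL4 at -0.0662 to 1.49, CCL23 at -0.39 to 0.55, 2660 to 4051 genes called and CCL22 at -0.0713 to 2.50. For 10 against 1 µg/ml at 4 h the ranges were CCL8 at -0.18 to 0.62, CCL1 at -0.18 to 0.56, CCL3 at -0.16 to 0.56, CCL22 at -0.30 to 0.89 and 1 to 2 genes called. For the dose effect at 24 against 4 h the ranges were 0 to 3 CC chemokines called, 1 to 58 genes called and CCL22 at -0.28 to 2.33. For the high dose against control at 4 h the range was 3181 to 4355 genes called. For the low dose against control at 24 h the range was 1139 to 1758 genes called. For 24 against 4 h without LTA the range was 3138 to 4226 genes called. For 10 against 1 µg/ml at 24 h the ranges were 49 to 662 genes called and 2 to 7 CC chemokines called. For untreated dHL-60 against uHL-60 the ranges were 4 to 10 CC chemokines called and 5710 to 6161 genes called. For the response of dHL-60 against that of uHL-60 at 24 h the range was 88 to 222 genes called.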
